A study of Mus musculus with 24 samples.

Results

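The kinesin motor genes of single ovulated mouse oocytes are described here, taken as the entries of the deposited table whose symbol is Kif with a number and an optional letter, or Kifc with a number. This found 41 of 25965 entries, grouped by known role into 15 spindle kinesins, 17 transport kinesins and 9 others. Kinesins with other names, such as Cenpe, were outside the rule and are given among the partners. Kinesins are motor proteins that use ATP to move along microtubules or to take them apart at their ends. Some build and stretch the spindle and the central spindle of dividing cells, and others carry vesicles, mitochondria or ciliary parts along microtubules. An ovulated mouse egg waits at the second meiotic metaphase with an assembled spindle, and at fertilisation it must finish the division and push out a small polar body. It is known to be nearly silent in transcription, so its messenger RNA is largely what was stored during growth.

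Single oocytes of adult female mice were collected after natural ovulation, freed of cumulus cells with hyaluronidase and of the zona with acid Tyrode's solution. The 4 transgenic females carried Thy1.2-AMHTg/0 and overexpressed anti-Müllerian hormone, a hormone that restrains follicle growth, and the 4 wild-type females were Thy1.2-AMH0/0. A Thy1.2 promoter is commonly used to drive transgenes in neurons. The labels give no strain. Each of 4 sequencing lanes held 1 female of each genotype, and 10 transgenic and 11 wild-type oocytes were analysed beside 1 library of the kit's control RNA. The water-only library and 1 transgenic oocyte of lane 1 have no column among the deposited values and were not analysed here. The study asked whether overexpression of the hormone alters transcripts of the egg. Levels are RPM, a gene's reads scaled to a library of 1000000 reads. The female was the replicate, and her value is the mean of her oocytes, so n = 4 per genotype and n = 8 for oocytes as a whole.

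Libraries of the oocytes held about 20441300 to 33341000 reads and the control RNA about 22039400, and 3 reads stood for 0.0900 to 0.147 RPM in an oocyte. All 11 oocyte markers checked were at 1 RPM or more in every oocyte, with a median summed level of 30049 RPM, against 20.9 RPM in the control RNA. The summed level of 25 cumulus and granulosa markers was 0.146 to 39.4 RPM in oocytes, with 6 of the 25 at 0 reads throughout, and it was highest in oocyte C of the wild-type female of lane 2. Of 15 neural and glial names 14 were in the table, and their sum was 52.0 to 92.4 RPM in oocytes and 17881 RPM in the control RNA. Syt1 was the 1 gene of these at 1 RPM or more in every oocyte, at 40.6 to 89.7 RPM. Blood markers summed to at most 7.00 RPM in oocytes. Amh itself had reads in 1 of 21 oocytes, at 0.0353 RPM, so it does not check the genotype labels. Nothing states whether that entry would take reads of the transgene.

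Reads of spindle kinesins made up most kinesin reads of the egg. Kinesin reads summed to 3076 ± 298 RPM in oocytes (SD, n = 8 females). Spindle kinesins gave 79.5% ± 1.80 of them, transport kinesins 19.4% ± 1.70, and Kif23 alone 36.2% ± 1.81. Every one of the 21 oocytes had a spindle share between 75.0% and 84.8%. In the control RNA the order was the other way around, with 5413 RPM in all, 1.02% from spindle kinesins and 98.5% from transport kinesins. The control RNA carried neural markers, and their part in this contrast was not tested. Between bulk RNA and single eggs, fewer cells of a type and less RNA per cell cannot be told apart.

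**Figure D1:**
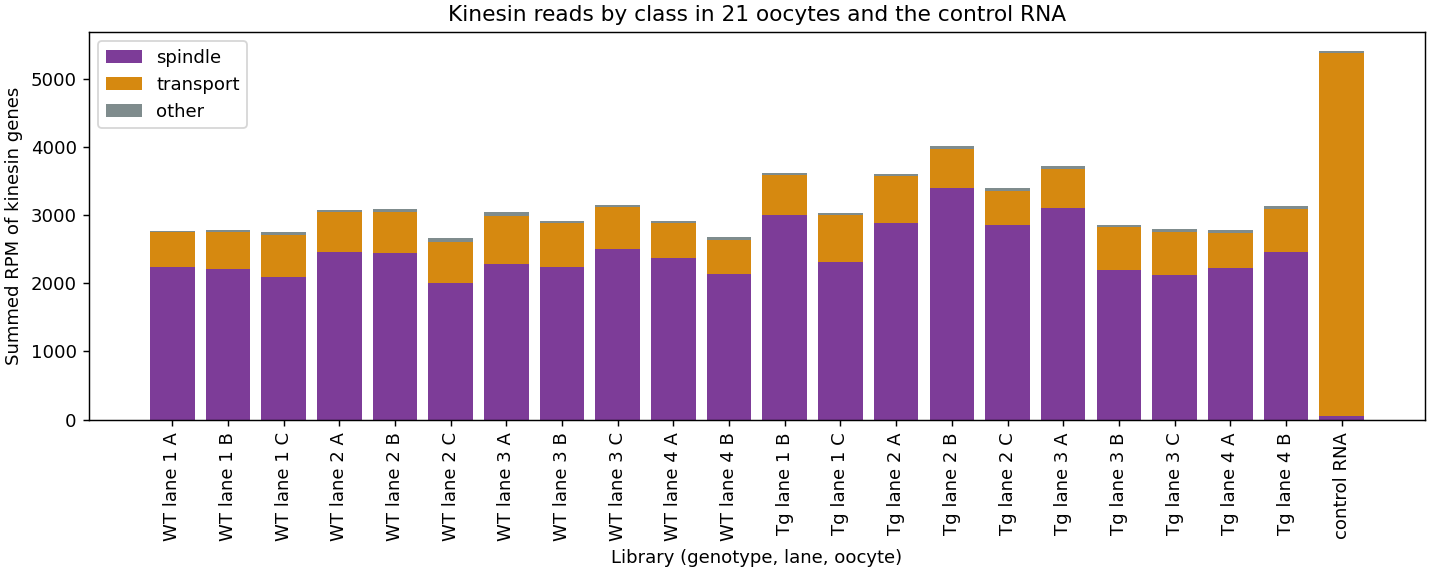
Summed level of kinesin genes in RPM (vertical axis) in each of 21 oocytes and in the control RNA (horizontal axis, WT wild-type, Tg transgenic), stacked by class. Spindle kinesins fill 75.0% to 84.8% of each oocyte's bar and 1.02% of the control RNA's.

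Kif23 was the most abundant kinesin transcript of the egg for its length. Levels of different genes were compared as RPM per kilobase of merged exons. Kif23 stood at 141 ± 19.2 RPM per kilobase (SD, n = 8), and the range of its female means, 119 to 181, did not overlap that of the next gene, Kif20b, at 41.2 to 67.7. Below Kif20b, at 52.8 ± 7.68 on average, came Kif20a at 44.6 ± 14.0, Kif3a at 39.6 ± 2.44, Kif4 at 33.6 ± 2.93, Kif18a at 24.4 ± 3.33 and Kif17 at 24.3 ± 6.40 RPM per kilobase. Kif22 followed at 17.9 ± 2.65, Kif14 at 12.5 ± 1.61 and Kif2c at 11.4 ± 5.77. From Kif20b down to the end of the order, each gene's range of female means overlapped that of its neighbour. The median was 11.4 RPM per kilobase over the 15 spindle kinesins and 1.62 over the 17 transport kinesins, among them genes with hardly any reads. Over the 13 of each class that averaged 1 RPM or more these medians were 12.5 and 4.15, beside 3.87 over all genes with that average. In the control RNA the medians over all 15 and 17 were 0.189 and 19.1. By RPM alone, 21 of the 41 genes averaged at least 10 RPM and 8 at least 100 RPM in oocytes.

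**Figure D2:**
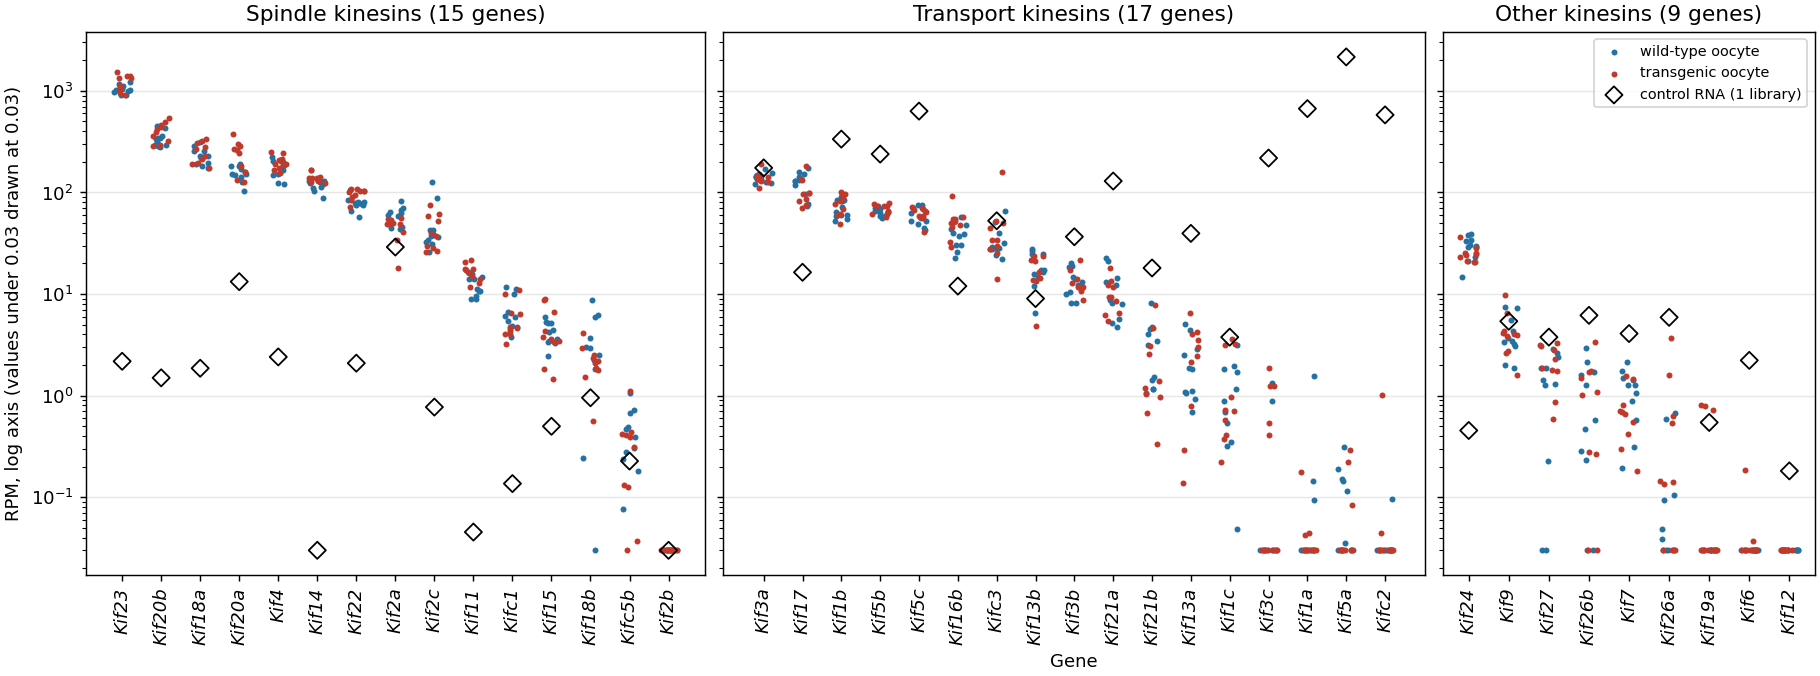
Level of each of the 41 kinesin genes in RPM on a log axis, with 1 point per oocyte (wild-type blue, transgenic red) and an open diamond for the control RNA, by class. Kif23 lies at 904 to 1539 RPM in the oocytes and at 2.18 RPM in the control RNA, and Kif5a at 0.311 RPM or less in the oocytes and at 2162 RPM in the control RNA.

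The spindle kinesins are given first, starting with motors known from the central spindle and cytokinesis. Kif23, also called MKLP1, is the motor of the centralspindlin complex that bundles midzone microtubules and recruits the furrow machinery. It lies on chromosome 9 at 61917280 to 61946799 of GRCm38, on the minus strand. Its level ran from 904 over a median of 1049 to 1539 RPM in oocytes and was 2.18 RPM in the control RNA, a 513-fold difference. Every oocyte was thus far above the control RNA. Racgap1, the other centralspindlin subunit, averaged 169 ± 24.3 RPM (SD, n = 8) in oocytes.

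Kif20a, or MKLP2, brings the chromosomal passenger complex to the central spindle and lies on chromosome 18 at 34624624 to 34633265. It ran from 102 over 169 to 374 RPM in oocytes and was at 13.2 RPM in the control RNA. Kif20b, or MPHOSPH1, acts late in cytokinesis, and its oocyte range was 279 to 537 RPM, against 1.497 RPM in the control RNA. Kif14, on chromosome 1 at 136467958 to 136531511, works with PRC1 and citron kinase in cytokinesis. Its oocytes held 88.4 to 168 RPM with a median of 129, while the control RNA had 0 reads, which makes its mean at least 947-fold higher in oocytes when 3 reads are taken as the floor of that library. For all 3 genes every oocyte was above the control RNA.

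Kif4 is a chromokinesin that, with PRC1, sets the length of midzone bundles. It ranged from 121 to 249 RPM in oocytes, against 2.40 RPM in the control RNA. Kif22, or Kid, pushes chromosome arms away from the poles, and it ranged from 57.0 to 109 RPM, against 2.09 RPM. Kif18a damps chromosome movements at metaphase, and its oocytes held 175 to 339 RPM, against 1.86 RPM. All 3 were above the control RNA in every oocyte.

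Of motors that keep the spindle bipolar or depolymerise microtubules, Kif2c stood at 11.4 RPM per kilobase, Kif2a at 8.09 and Kif11 at 1.96. The female means of Kif2c ran from 7.01 to 24.5 RPM per kilobase and overlapped those of Kif14 and Kif22. Kif11, or Eg5, slides antiparallel microtubules apart to keep the spindle bipolar. It averaged 14.6 ± 2.91 RPM in oocytes (SD, n = 8) and had 1 read in the control RNA, a ratio of 322 with a 95% Poisson interval of 57.8 to 12719 that covers counting error only. Kif15, which can share the work of Kif11, averaged 4.38 ± 1.41 RPM. Kif2c, or MCAK, removes faulty kinetochore attachments and averaged 49.6 ± 25.2 RPM, against 0.771 RPM in the control RNA. Kif2a, a depolymerase used at spindle poles and in neurons, lies on chromosome 13 at 106958996 to 107022126. It averaged 51.8 ± 10.9 RPM, and the control RNA with 29.0 RPM was within the oocyte range of 18.2 to 82.7 RPM.

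Kifc1, a minus-end motor that focuses spindle poles, averaged 6.55 ± 1.87 RPM and had 3 reads in the control RNA, a ratio of 48.1 with an interval of 16.5 to 233. Kifc1 and its near copy Kifc5b, at 0.391 ± 0.205 RPM, shared 38.6% and 36.6% of their 50-base words, so the split of reads between them is uncertain. Kif18b, a motor of astral microtubules, averaged 2.78 ± 1.11 RPM. Kif2b had 0 reads in every library, which allows a level of up to 0.00600 RPM over the oocytes together.

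Transport kinesins ranged widely: Kif3a and Kif17 passed 100 RPM on average, while Kif5a, Kif1a, Kifc2 and Kif3c stayed at 1.88 RPM or less in every oocyte. Kif3a, the constant subunit of heterotrimeric kinesin-2 that drives intraflagellar transport, ran from 111 over 141 to 189 RPM in oocytes and was 175 RPM in the control RNA. Its partner subunits were lower per length, with Kif3b at 2.32 ± 0.543 and Kif3c at 0.0536 ± 0.0417 RPM per kilobase against 39.6 ± 2.44 for Kif3a (SD, n = 8). Kifap3, the accessory subunit of the complex, averaged 1.81 ± 0.790 RPM in oocytes and had 249 RPM in the control RNA. Kif17, a homodimeric kinesin-2, ran from 69.9 over 119 to 181 RPM in oocytes, all above the 16.4 RPM of the control RNA. Kif16b, a motor of early endosomes, ran from 22.5 to 93.2 RPM, also all above the 12.0 RPM of the control RNA.

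Of the conventional kinesins, Kif5b, the broadly expressed one, ran from 56.4 over 66.4 to 78.8 RPM in oocytes, against 239 RPM in the control RNA. Kif5c ran from 41.0 over 59.2 to 75.9 RPM, against 633 RPM. Kif5a, on chromosome 10 at 127225696 to 127263363, had reads in 9 of 21 oocytes and at most 0.311 RPM, against 2162 RPM. Klc1, a light chain that links Kif5 motors to cargo, averaged 14.6 ± 4.31 RPM in oocytes (SD, n = 8), against 759 RPM in the control RNA. Kif1b, a carrier of mitochondria and synaptic vesicle precursors, ran from 48.5 over 72.1 to 100.1 RPM, against 335 RPM.

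Kif1a, a neuronal carrier of synaptic vesicle precursors, had reads in 7 of 21 oocytes and at most 1.55 RPM, against 670 RPM in the control RNA. Kifc2, a motor of neuronal processes, had reads in 3 oocytes and at most 1.01 RPM, against 581 RPM. Kif3c had reads in 7 oocytes and at most 1.88 RPM, against 218 RPM. No oocyte came near the control RNA for these 3 genes, and opposite-strand 1110002L01Rik overlaps 40.7% of the exon bases of Kif3c. Kifc3 ran from 14.0 to 159 RPM, on both sides of its 52.7 RPM in the control RNA. Kif21a averaged 10.5 ± 2.78, Kif13b 17.6 ± 4.24 and Kif3b 13.0 ± 3.06 RPM (SD, n = 8), and Kif21b, Kif13a and Kif1c averaged between 1.26 and 2.63 RPM.

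Among the other kinesins, Kif24, a centriolar motor that restrains ciliogenesis, was at 14.6 to 39.3 RPM in oocytes and at 0.454 RPM in the control RNA. Kif9, a motor of sperm tails and cilia, averaged 4.16 ± 1.32 RPM, Kif27 1.84 ± 0.617 RPM and Kif26b 1.12 ± 0.578 RPM (SD, n = 8). Kif7, a regulator of Hedgehog signalling at the cilium, averaged 0.869 ± 0.493 RPM. Kif26a, Kif19a and Kif6 averaged 0.478 RPM or less, and Kif12 had 0 reads in all oocytes and 0.181 RPM in the control RNA.

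Set against the control RNA gene by gene, spindle kinesins were mostly higher, while transport kinesins were mostly lower, as genes as a whole were. The difference was taken on the log2(RPM + 1) scale, which understates the change of low genes, between the mean of the 8 females and the 1 control library, without a test. Over all 16101 genes with at least 1 RPM on either side, 23.7% were higher in oocytes by 1 or more and 57.4% lower by 1 or more, with a median of -1.46. Of the 37 kinesin genes compared, 14 were higher and 16 lower. Of 13 spindle kinesins 11 were higher and 0 lower, with a median of 4.69. Of 17 transport kinesins, Kif17 and Kif16b were higher and 12 were lower, with a median of -2.21. With the medians of the libraries set equal, which moved the median of all genes to -0.88, the spindle count was 13 higher and 0 lower and the transport count 3 higher and 10 lower. That scaling also moved the calls over all genes from 3819 higher and 9239 lower to 4708 and 7708.

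The lowest oocyte stood above the control RNA by at least 3 on this scale for 9 kinesin genes, where 5.58% of all genes did so. The highest oocyte stood below it by that much for 5, where 19.8% of all genes did. The largest positive differences were 8.44 for Kif23, 7.18 for Kif20b, 7.01 for Kif14 and 6.36 for Kif18a. The most negative were -10.97 for Kif5a, -9.30 for Kif1a, -9.13 for Kifc2 and -7.41 for Kif3c. Kif24 differed by 4.24.

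**Figure D3:**
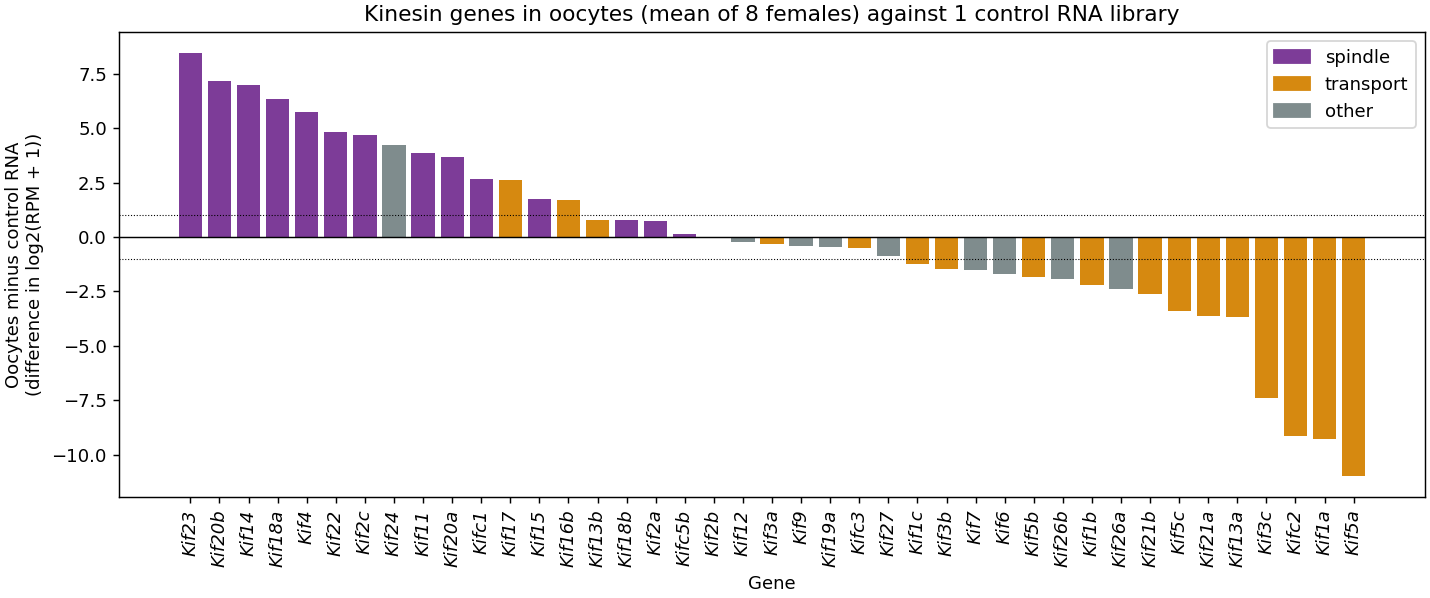
Difference between the mean of 8 females' oocytes and the control RNA in log2(RPM + 1) (vertical axis) for each kinesin gene in order (horizontal axis), coloured by class, with dotted lines at 1 and -1. Spindle kinesins take the left end up to 8.44 for Kif23, and Kif5a, a transport kinesin, ends the right side at -10.97.

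Partner genes were set against the control RNA in the same way, where 23.7% of all genes were higher and 57.4% lower by 1 or more, with a median of -1.46. Of 19 spindle partners 13 were higher and 3 lower, with a median of 3.39. Prc1, the midzone bundler that binds Kif4 and Kif14, averaged 1075 ± 94.0 RPM in oocytes against 0.817 RPM. Cenpe, the kinetochore kinesin, averaged 610 ± 87.0 RPM against 1.81 RPM, and Mapre1, a plus-end binding protein, 578 ± 54.0 RPM against 102 RPM (SD, n = 8). Of 21 transport partners 0 were higher and 19 lower, with a median of -4.32. The most abundant transport partners were Arl8b, a lysosomal GTPase that recruits kinesins, at 228 ± 18.0 RPM, and Rhot1, the mitochondrial adaptor Miro1, at 226 ± 68.6 RPM. Of 27 genes of cytoplasmic dynein, the minus-end motor, and its cofactors, 1 was higher and 18 lower, with a median of -1.93. Its heavy chain Dync1h1 averaged 1.59 ± 0.485 RPM in oocytes against 163 RPM.

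The promoters of several spindle kinesins carry a short element known from genes of the G2 and M phases. The cell cycle genes homology region, CHR, is spelled TTTGAA here and was searched on both strands in the 100 bases from 70 before to 30 after the annotated start. RefSeq promoters on GRCm38.p6 matched 33 of the 41 genes, and of the spindle kinesins Kif20a had none. The element was found in 8 of 15 promoter entries of 14 spindle kinesin genes (53.3%). It was found in 1 of 13 entries of 11 transport kinesin genes (7.69%) and in 5.11% of all 32851 promoters. CCAAT, which can share at most 1 letter with it, was found in 8 of 15, in 2 of 13 and in 16.2% of all. Some genes have more than 1 promoter entry, among them Kif2a and Kif1a. The transport entry with TTTGAA is that of Kif1a at chr1:93082451-93082550, while the Kif1a entry at chr1:93101845-93101944 lacks it. Kif5a, Kif5b, Kif13b, Kif21b, Kifc2 and Kifc3 had no entry. In the full 300 bases of each entry TTTGAA was found in 11 of 15, in 1 of 13 and in 17.9%. The presence of letters in a window is a description and does not show that a factor acts there.

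The sequences of 4 spindle kinesins with the element, 2 abundant spindle kinesins without it in this window and 3 transport kinesins are shown for comparison, with TTTGAA or its reverse complement in capitals. They lie at chr9:61946770-61946869 (minus strand) for Kif23, chr19:34922288-34922387 (plus strand) for Kif20b, chrX:100625995-100626094 (plus strand) for Kif4 and chr19:37376312-37376411 (plus strand) for Kif11. Those without it are at chr2:109280668-109280767 (plus strand) for Kif18a, chr1:136467778-136467877 (plus strand) for Kif14, chr11:53567299-53567398 (plus strand) for Kif3a, chr2:49619216-49619315 (plus strand) for Kif5c and chr12:3365062-3365161 (plus strand) for Kif3c. Each is written 5′ to 3′ on the strand of its gene.
Kif23: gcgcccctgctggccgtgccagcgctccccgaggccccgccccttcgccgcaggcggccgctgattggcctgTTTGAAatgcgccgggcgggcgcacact
Kif20b: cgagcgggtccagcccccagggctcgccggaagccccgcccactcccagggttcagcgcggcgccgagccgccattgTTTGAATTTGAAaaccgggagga
Kif4: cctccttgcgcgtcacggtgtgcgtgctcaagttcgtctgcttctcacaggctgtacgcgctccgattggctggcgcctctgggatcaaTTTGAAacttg
Kif11: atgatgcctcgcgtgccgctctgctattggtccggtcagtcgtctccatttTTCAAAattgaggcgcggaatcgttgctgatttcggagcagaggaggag
Kif18a: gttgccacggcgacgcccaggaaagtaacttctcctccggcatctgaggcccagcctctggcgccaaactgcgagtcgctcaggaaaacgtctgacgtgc
Kif14: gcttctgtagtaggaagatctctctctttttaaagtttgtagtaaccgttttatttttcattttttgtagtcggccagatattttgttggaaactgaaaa
Kif3a: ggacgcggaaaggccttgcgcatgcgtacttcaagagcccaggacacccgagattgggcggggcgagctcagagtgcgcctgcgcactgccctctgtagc
Kif5c: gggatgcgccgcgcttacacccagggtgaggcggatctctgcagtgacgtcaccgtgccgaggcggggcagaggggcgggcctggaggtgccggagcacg
Kif3c: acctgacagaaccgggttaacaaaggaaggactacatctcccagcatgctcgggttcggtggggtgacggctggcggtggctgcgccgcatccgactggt
Kif20b carries the element in direct repeat, and in Kif11 it lies on the opposite strand. Kif23, Kif20b, Kif4 and Kif11, which have it, stood at 141, 52.8, 33.6 and 1.96 RPM per kilobase in oocytes. Kif18a and Kif14, which lack it in this window, stood at 24.4 and 12.5. Kif3a, Kif5c and Kif3c, which also lack it there, stood at 39.6, 8.53 and 0.0536. A link between the element and these levels was not tested.

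No kinesin gene differed between the genotypes past the threshold. On female means of log2(RPM + 1), limma with Benjamini-Hochberg adjustment over the 10987 genes that averaged 1 RPM or more called 0 genes at 0.05, or 0.0%. Of the 41 kinesin genes 30 passed this filter, and 0 of them were called. At an unadjusted limma p under 0.05 there were 748 genes, 6.81% of all, and 2 of the 30 kinesin genes. By direction, 1 kinesin gene was higher with such a p, where 2.78% of all genes were, and 1 lower, where 4.03% were. The smallest adjusted p in the table was 0.724. Voom on reads summed per female also called 0 kinesin genes. With single oocytes as units and the female as a random effect, 12 genes were called in all, 0 of them kinesins. Where the labels do not say how the females were related, these p-values measure only the spread between them.

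The direction of the differences was mixed within each class. Of the 13 spindle kinesins tested 8 were higher and 5 lower in transgenic oocytes, with a median difference of 0.18 on the log2 scale. Of the 13 transport kinesins 8 were higher and 5 lower, with a median of 0.07, and of 4 others 3 were higher. Leaving out the transgenic female of lane 2 gave 7 higher and 6 lower spindle kinesins with a median of 0.094, beside 0.099 for the transport kinesins. Over left-out females the spindle median ran from 0.094 to 0.194 and the transport median from 0.017 to 0.117. Over all tested genes 47.8% were higher, with a median of -0.01. With the medians of the libraries set equal, 54.6% of all genes, 9 of 13 spindle and 10 of 13 transport kinesins were higher. The sign was the same in all 4 lanes for 9 of 30 kinesin genes, where 18.3% of all genes did so.

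The summed level of spindle kinesins was 2631 ± 306 RPM in the transgenic females and 2270 ± 68.7 RPM in the wild-type ones (SD, n = 4 each), and the ranges of the females met at 2340 and 2341 RPM. Within lanes 1 to 4 the transgenic female had 2664, 3046, 2476 and 2340 RPM and her wild-type lane mate 2180, 2299, 2341 and 2260 RPM, so she was higher in 4 of 4 lanes. Of all genes taken singly, 18.3% had 1 sign in all 4 lanes. Kif23, the largest part of the spindle sum, was at 1204 ± 171 RPM in the transgenic and 1031 ± 68.2 RPM in the wild-type females. Transport kinesins summed to 602 ± 22.1 and 578 ± 65.1 RPM, with the transgenic female higher in 2 of 4 lanes. The table's genes together took a median of 93.3% of reads in transgenic and 92.2% in wild-type oocytes, and the part of this in the differences was not tested.

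Kif20a and Kif2a had the smallest p among the kinesin genes, in opposite directions. Kif20a was at 279, 296, 182 and 170 RPM in the transgenic females of lanes 1 to 4 and at 132, 185, 146 and 158 RPM in the wild-type females. The transgenic female was higher in each lane, but the wild-type female of lane 2 exceeded the transgenic females of lanes 3 and 4. The difference was 0.52 ± 0.20 on the log2 scale (SE), with an unadjusted p of 0.024 and an adjusted p of 0.724 by limma. Opposite-strand Cdc23 overlaps 29.3% of the exon bases of Kif20a, and its own difference was 0.24 ± 0.15. Whether the counts used strand is not stated, so reads of the pair cannot be told apart there.

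Kif2a was at 33.6, 48.3, 51.2 and 43.5 RPM in the transgenic females and at 61.2, 49.2, 68.9 and 58.1 RPM in the wild-type females. The transgenic female was lower in each lane, and the groups overlapped only through the wild-type female of lane 2. The difference was -0.46 ± 0.19, with an unadjusted p of 0.032 and an adjusted p of 0.724 by limma. Leaving out the transgenic female of lane 1 gave -0.30. Opposite-strand Dimt1 overlaps 19.2% of the exon bases of Kif2a.

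Kif14 was the 1 kinesin gene of 30 whose female groups did not overlap, where 4.31% of all genes did not. Its transgenic females were all above the wild-type ones, as in 1.67% of all genes, and 0 kinesin genes had them all below, as in 2.64%. It was at 134, 137, 140 and 153 RPM in the transgenic females and at 125, 124, 123 and 96.0 RPM in the wild-type females. The wild-type female of lane 4 lay well below her group. The difference was 0.27 ± 0.14 on the log2 scale, with an adjusted p of 0.757 by limma. Single oocytes of the genotypes overlapped, at 124 to 168 RPM with the transgene and 88.4 to 135 RPM without it.

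Kif23 was at 1238, 1428, 1116 and 1035 RPM in the transgenic females and at 1037, 1100, 1051 and 937 RPM in the wild-type females. The transgenic female was higher in each lane, while the groups overlapped. The difference was 0.21 ± 0.13, with an adjusted p of 0.764 by limma. Kif22 averaged 97.6 ± 8.33 and 78.3 ± 8.83 RPM in transgenic and wild-type females (SD, n = 4 each), a difference of 0.32 ± 0.15 that was positive in 3 lanes, with an adjusted p of 0.735. Kif11 averaged 16.7 ± 2.19 and 12.5 ± 1.73 RPM, with the transgenic female higher in all 4 lanes. Its difference was 0.40 ± 0.20, with an adjusted p of 0.744 by limma.

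Kif16b averaged 49.98 ± 14.5 RPM in the transgenic and 38.2 ± 8.25 RPM in the wild-type females, and Kif27 2.16 ± 0.495 and 1.52 ± 0.613 RPM. Kif27 was higher in the transgenic female of all 4 lanes, and so was Kif16b by the log2 means, although in lane 4 the RPM means were 30.8 and 31.0. The adjusted p of each was 0.764 by limma.

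**Figure D4:**
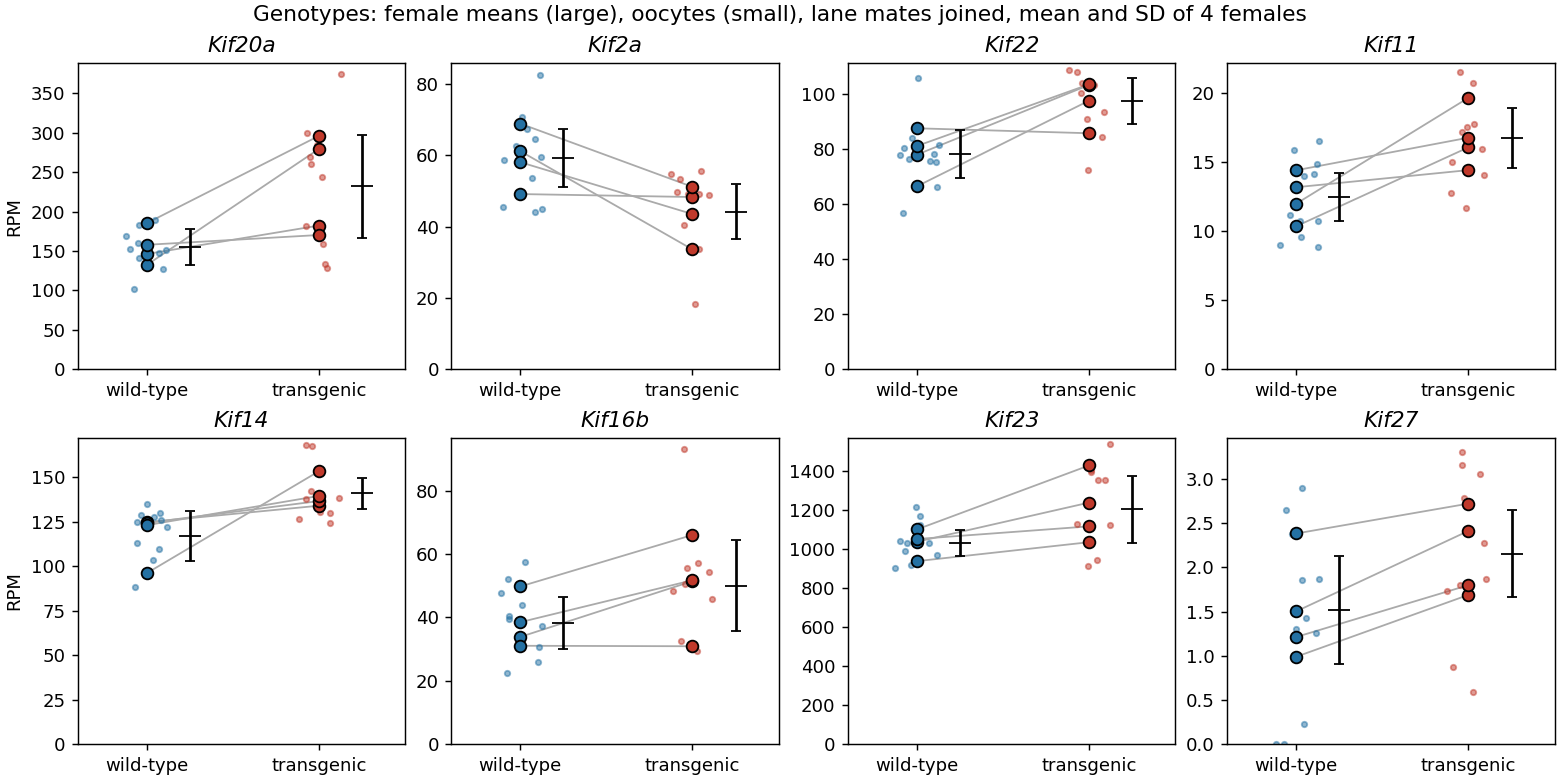
RPM (vertical axes, from 0) of the 8 kinesin genes with the smallest genotype p in wild-type and transgenic oocytes, with small points for oocytes, large points for female means joined within a lane, and bars for the mean and SD of 4 females per genotype. Kif14 is the 1 gene whose female means do not overlap, at 96.0 to 125 RPM without and 134 to 153 RPM with the transgene.

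The other most abundant kinesins had larger p. Kif20b differed by 0.19 ± 0.15, Kif4 by 0.18 ± 0.13 and Kif18a by 0.09 ± 0.15 on the log2 scale (SE). Kif3a averaged 142 ± 13.0 RPM in the transgenic and 142 ± 3.17 RPM in the wild-type females (SD, n = 4 each), with a difference of -0.0032 ± 0.13 that turned to 0.0514 with medians set equal. Kif17 differed by -0.26 ± 0.23, Kif1b by 0.14 ± 0.16 and Kif5b by 0.10 ± 0.14. The adjusted p of these 7 genes ran from 0.793 to 0.996 by limma. The range over all 30 kinesin genes was -0.46 to 0.52.

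No partner or dynein gene passed the threshold either. Of 17 transport partners tested 12 were higher and 5 lower in transgenic oocytes and 0 had an unadjusted limma p under 0.05. Rhot1 was at 258 ± 73.3 and 194 ± 53.7 RPM in transgenic and wild-type females (SD, n = 4 each), Appbp2 at 48.4 ± 11.5 and 37.3 ± 7.58 RPM, and Rhot2 at 1.60 ± 0.948 and 2.35 ± 0.601 RPM. Of 18 spindle partners 11 were higher and 7 lower, and again 0 had such a p. Tpx2, an activator of spindle assembly, was at 388 ± 57.7 and 340 ± 16.1 RPM, Cenpe at 653 ± 98.8 and 567 ± 54.2 RPM and Nusap1 at 218 ± 91.8 and 280 ± 76.2 RPM.

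Of 23 dynein genes tested 9 were higher and 14 lower in transgenic oocytes. Of these 5 had an unadjusted limma p under 0.05, all 5 lower in transgenic oocytes and Dync1i2 among them. Of all genes 6.81% had such a p, 4.03% with a lower level. After adjustment 0 dynein genes passed. Dynll1, a dynein light chain that also binds other proteins, was at 14.3 ± 3.52 RPM in the transgenic and 26.7 ± 8.21 RPM in the wild-type females, a difference of -0.85 ± 0.25. Dynlrb1, another light chain, was at 11.3 ± 3.03 and 18.7 ± 6.15 RPM, and Dctn4, a dynactin subunit, at 12.5 ± 1.02 and 18.3 ± 2.93 RPM. The adjusted p of each of these 3 was 0.724 by limma. The most abundant dynein genes were Dync1i2 at 92.6 ± 23.6, Dynlt3 at 85.8 ± 14.9 and Actr1a at 75.6 ± 16.9 RPM (SD, n = 8).

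The abundant kinesin transcripts differed in how much they varied between sister oocytes of 1 female. The SD between sisters on the log2(RPM + 1) scale, pooled over the 8 females, had a median of 0.33 over the 30 kinesin genes tested and 0.41 over all tested genes. It was 0.14 for Kif5b and Kif14, with 1.26% and 1.36% of tested genes lower, 0.17 for Kif22, 0.18 for Kif23 and 0.18 for Kif3a. It was 0.25 for Kif20b, 0.29 for Kif17, 0.30 for Kif4, 0.31 for Kif18a and Kif1b and 0.32 for Kif20a, near the median of the 30. Kif20a varied 3.66-fold over the oocytes, and the 3 sisters of the transgenic female of lane 3 held 285, 134 and 128 RPM. Kif5b varied 1.40-fold between the lowest and the highest of the 21 oocytes and Kif23 1.70-fold. Kif18b had the largest SD between sisters of the 30 genes, 0.88, at a mean of 2.78 RPM. Kifc3 varied 11.4-fold over the oocytes, from 14.0 RPM in oocyte A of lane 3 to 159 RPM in oocyte C of lane 1, both transgenic. The genotype difference of Kifc3, 0.38 ± 0.32, was 0.05 without the female of that oocyte C.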

How the data were processed

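Single oocytes were lysed, their cDNA was amplified by SMART-Seq v4 and turned into ThruPLEX libraries, per the labels' protocols. The submitters' processing notes name HISAT2, Trim Galore and FastQC, and as builds GRCm39 and mm39, without versions. Counting tool, annotation release and strandedness were not given in the sources used here. The authors deposited 1 table of log2 values, with 22 columns for the 21 oocytes and the control RNA. They are described as RPKM, but carry no division by gene length and behave as log2 RPM, where 0 reads is entered as if it were 0.9 reads. Of 256342 values below 2000 reads 100% lay no more than 0.02 from a whole number of reads, as did 99.84% without that limit. Recovered reads were turned into RPM. Its coordinates fit GRCm38: of 25035 identifiers matched to GENCODE M21, 99.7% overlapped that gene, the 41 kinesin genes included. Exon lengths came from M21, and coding lengths, used as an alternative, from its coding exons.

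Genes that averaged 1 RPM or more across oocytes were fitted with limma 3.58.1 in R 4.3.3 (lmFit, eBayes with trend) on log2(RPM + 1) averaged per female, two-sided, with Benjamini-Hochberg adjustment over all of them and a threshold of 0.05. A count model was not the main test because the deposited unit is log2. The lane pairs the females by the labels, and the correlation of lane mates' deviations over genes was -0.04 in lane 1, 0.084 in lane 2, 0.34 in lane 3 and 0.32 in lane 4, with a median of -0.055 between females of different lanes. Pearson's r between oocytes was 0.907 to 0.973, so no library repeated another.

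The kinesin genes, classes, partner lists and tests were chosen with earlier results of these data known. Every kinesin gene is named. Full values go to the 6 spindle and 4 transport kinesins with the highest RPM, the 8 genes with the smallest genotype p and up to 4 per class that stand apart from the control RNA by a log2 of 3 or more in all oocytes. Of each partner list up to 3 genes with the smallest p and 3 with the highest RPM are named. Kif2c and Kifc3, some low kinesins, Racgap1, Kifap3, Klc1, Dync1h1 and the 3 overlapping genes are named after their values were seen. Kif28 of the transport list matched no entry. The closing paragraphs give the alternatives.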

Additional observations from a re-analysis of the deposited data

Results flagged for a closer look

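Within a genotype, some libraries stood apart by Dixon's test at the 95% level, run on the log2(RPM + 1) scale. Levels below are printed in RPM, where the gaps differ in relative size, so some would not pass on RPM. The test was run for kinesin genes on the 4 female means of each genotype and on the 10 transgenic oocytes. Single wild-type oocytes were not checked, since it was used for at most 10 values and there were 11 of them. Of 90 groups checked 10 had such a value, where chance gives about 1 in 20 for a single group. The groups share females and oocytes, so this count does not show an excess over chance.

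Kif2c stood apart in the wild-type female of lane 4, at 107 RPM beside 33.7 to 38.6 RPM in the other wild-type females, and both of her oocytes were high, at 88.4 and 125 RPM. The genotype difference of Kif2c was -0.12 ± 0.33 on the log2 scale with her and 0.27 without her. The same female was low for Kif14, at 96.0 RPM beside 123 to 125 RPM.

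The wild-type female of lane 3 was low for Kif18b, at 1.81 RPM beside 3.37 to 4.96 RPM, and high for Kif13b, at 26.3 RPM beside 15.0 to 16.2 RPM. Among transgenic females, Kif4 was low in lane 1, at 183 RPM beside 198 to 204 RPM. Kif5c was low in lane 2, at 51.5 RPM beside 65.1 to 66.3 RPM.

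Among the 10 transgenic oocytes, oocyte C of lane 1 was low for Kif2a, at 18.2 RPM beside 33.7 to 55.5 RPM, and for Kif13b, at 4.86 RPM beside 13.4 to 23.9 RPM. Oocyte C of lane 2 was low for Kif5c, at 41.0 RPM beside 56.6 to 71.5 RPM. Oocyte B of lane 4 was high for Kif3a, at 189 RPM beside 111 to 147 RPM.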

How the results depend on the processing

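Of the genes whose genotype difference was followed through all alternatives, 0 crossed the threshold in any of them, and the lane as a replicate block changed no call: Kif20a stayed at 0.52 and all kinesin calls at 0. The adjusted limma p of Kif20a over the alternatives ran from 0.126 to 0.999. The count of genes called over the whole table was 12 when single oocytes were fitted with a random effect for the female and the lane as a replicate block, and 0 to 1 when leaving out each female. The direction turned for Kif3a, to 0.0514 with medians set equal and 0.0054 without the oocyte of the highest cumulus sum, an alternative chosen after seeing the data, and its range over left-out females was -0.0556 to 0.0377. Over left-out females Kif18a ran from -0.0337 to 0.159 and Kif2c from -0.28 to 0.27. Other uncalled differences moved by over 1.5 times without changing sign. Kif23 was 0.12 and Kif20b 0.094 without the transgenic female of lane 2, and Kif1b 0.042 without the wild-type female of lane 1. Kif5b was 0.061 without the transgenic female of lane 1, Kif14 0.178 without the wild-type female of lane 4 and Kif16b 0.57 without the transgenic female of lane 4. Kif17 ran from -0.467 without the wild-type female of lane 4 to -0.143 without that of lane 3. With coding length the median levels of spindle and transport kinesins were 22.9 and 3.16 RPM per kilobase, and with no length 51.8 and 13.0 RPM. The spindle share of kinesin reads was 76.1% per kilobase, 67.8% without Kif23 and 86.8% with Kif2a and the intraflagellar motors left out. The median difference of spindle kinesins from the control RNA was 5.68 with a pseudocount of 0.1 and 4.97 with medians set equal. That of transport kinesins was -1.46 with medians set equal and -2.61 without the intraflagellar motors. The control RNA is 1 library, so differences from it have no replicate check. Genes under about 1 RPM rest on few reads of single cells, and interval and floor cover counting error only.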
